A study of Mus musculus with 12 samples.

Results

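The unfolded protein and integrated stress genes are 33 genes of the endoplasmic reticulum (ER), chosen by name from the 40202 genes of the deposited table: ER chaperones, disulfide isomerases, ER degradation genes, the 3 stress sensors and the transcription factors and targets below them. The choice was made with earlier results of these data known, which limits any comparison of the members with all genes. All 33 were in the table and passed the filter on low values, with at least 42 reads in every library. They were measured in the retina of C57BL/6J mice, in 12 RNA-seq libraries that form 4 groups of 3. CNV cp-asiNRL and CNV PBS are retinas of the laser model of choroidal neovascularisation (CNV), in which laser burns are followed by growth of vessels from the choroid. WT cp-asiNRL and WT PBS are retinas of wild-type mice without laser. cp-asiNRL is an asymmetric small interfering RNA (siRNA) made to enter cells by itself and directed against Nrl, the transcription factor that sets rod fate, and the series asks what its knockdown does to rods. Each injection into the vitreous was 1 µl, either of cp-asiNRL at 6 µg/µl or of the vehicle, 0.5X PBS. The vehicle holds no siRNA, so effects of losing Nrl and of receiving an siRNA cannot be told apart in this design. Neither the age of the mice, the time after injection nor the number of animals behind a library is in the labels, so p-values measure the spread between libraries, which may be technical.

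The ER folds secreted and membrane proteins, and rods send large amounts of membrane protein through it to their outer segments. When unfolded proteins build up there, 3 sensors in the ER membrane respond. ATF6 is cut in the Golgi to release a transcription factor that raises ER chaperone genes. IRE1, encoded by Ern1, splices the Xbp1 transcript so that it encodes an active factor for ER degradation and secretory genes. PERK, encoded by Eif2ak3, phosphorylates the initiation factor eIF2, which slows translation and favours that of ATF4, and other kinases start the same integrated stress response from other signals. Gene-level reads show neither ATF6 cleavage, nor Xbp1 splicing, nor eIF2 phosphorylation. They show the amount of RNA read over a gene, and in whole retina fewer cells of a type and less RNA per cell cannot be told apart. The deposited gene length is the genomic span, so reads from introns may be among those counted, above all in long genes.

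After cp-asiNRL, 7 of 11 chaperone and co-chaperone genes and 3 of 4 isomerase genes of the ER fell when both retina states were combined, and no sensor gene passed the test. Over both states, 11 of the 33 members fell and none rose, and the 11 were the chaperones and cofactors Hspa5, Hsp90b1, Calr, Hyou1, Manf, Creld2 and Dnajb11, the isomerases Pdia4, Pdia6 and P4hb, and the transcription factor Xbp1. Of all 25619 genes tested, 1.65% were called lower and 0.71% higher in that comparison. The falls were of 13.3% to 23.3% in mean CPM (a gene's reads scaled to the library total, the customary unit of level). "Fell" and "rose" stand here for an adjusted p under 0.05 in limma, a linear model fitted to log2(CPM + 1) of all genes, with Benjamini-Hochberg adjustment over all of them. Of the 33 members 31 were below 0 on the log2 scale, with a median of -0.15, while the median of all genes tested was 0.00139 and 49.4% of them were below 0. That share depended on gene span. Among genes of at least 5 CPM, 87.3% of those spanning under 5 kb and 28.7% of those above 100 kb were below 0. In those same classes 10.3% and 0.26% were called lower. The 1.65% of all genes tested also covers genes of lower level, unlike most of the members. At an unadjusted p under 0.05, 20 members were lower and none higher, beside 13.7% of all genes lower. In 11 of the 33 members all 6 cp-asiNRL libraries lay below all 6 PBS libraries, which 1.19% of all genes tested did. They were the 11 genes that fell. Those were called from the same libraries, so the separation adds no separate evidence to the calls.

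**Figure D1:**
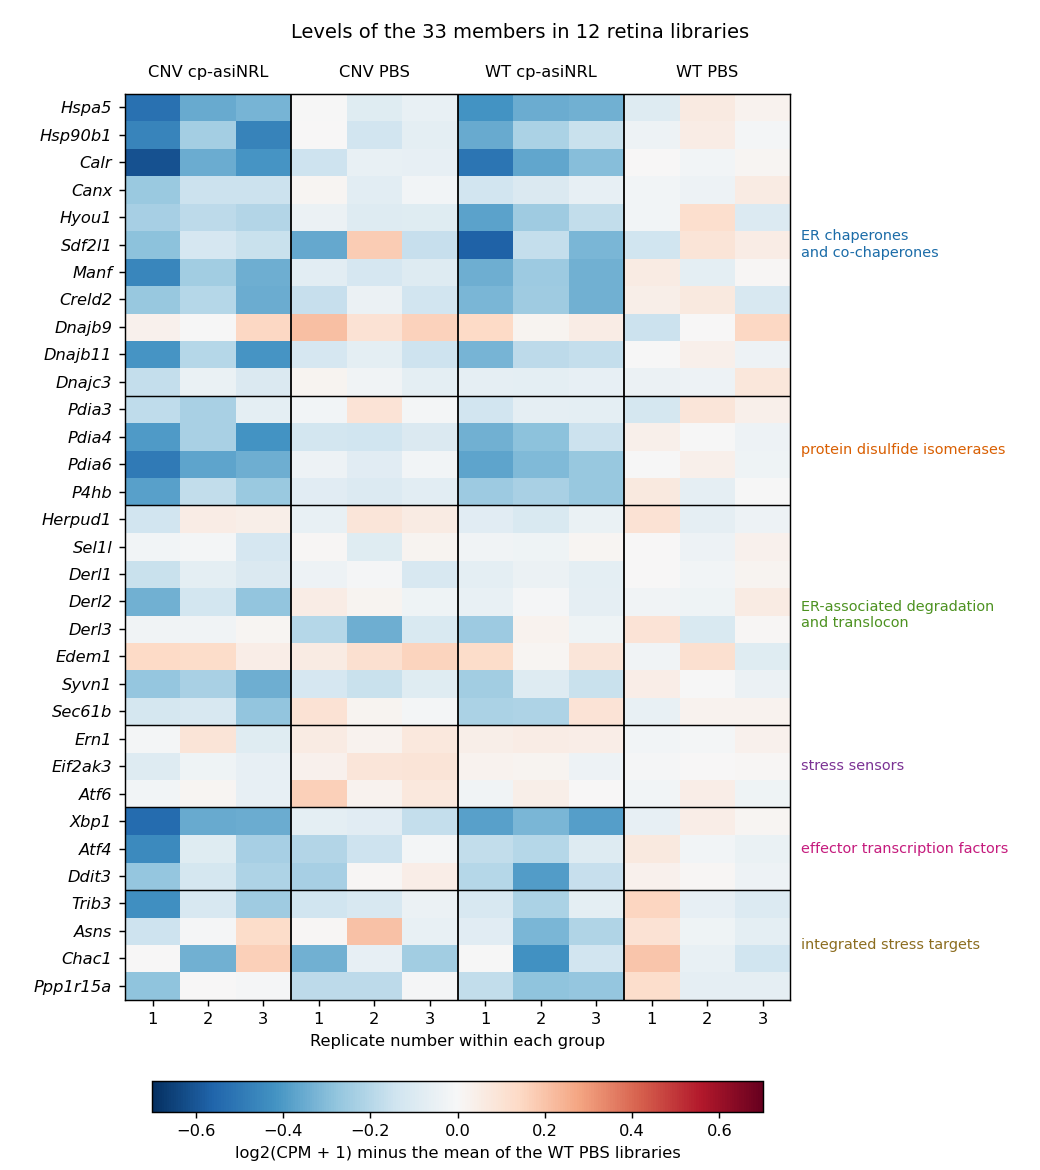
Level of each of the 33 genes (rows, by role) in each of the 12 libraries (columns, by group), as log2(CPM + 1) minus the mean of the 3 WT PBS libraries; blue is lower and red is higher. The rows of Hspa5, Calr, Pdia6 and Xbp1 are blue in all 6 cp-asiNRL libraries and near white in the PBS libraries, while the rows of the 3 sensors stay pale throughout.

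The libraries held 51298466 to 69394486 reads in genes. Nrl had 324, 483 and 263 CPM in the 3 CNV cp-asiNRL libraries, against 449.5, 423 and 524 CPM in CNV PBS libraries, and 397, 418 and 468 CPM in WT cp-asiNRL libraries, against 560.1, 505 and 555 CPM in WT PBS libraries. Replicate 2 of CNV cp-asiNRL differed from the other replicates of its group. Its Nrl lay within the CNV PBS range, and its Gfap, a marker of reactive glia, was at 10.7 CPM against 41.6 and 40.7 CPM in those replicates. Calls in CNV retina that this library moves are given with and without it, beside the gene or in the counts for CNV retina. Leaving this library out raised the calls in CNV retina over all genes, to 8.66% lower and 8.87% higher. With the CNV libraries alone limma called none of all genes. Hspa5, Calr, Hsp90b1 and Xbp1 each had a limma adjusted p of 0.513 in that fit. Retina was checked by 7 rod markers, Gnat1 and Sag among them, which summed to 5314 to 8174 CPM in CNV cp-asiNRL, 7296 to 8370 CPM in CNV PBS, 6959 to 7760 CPM in WT cp-asiNRL and 8122 to 8643 CPM in WT PBS libraries, with none at 0.

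The promoters of several members carry the binding elements of these pathways, and a few are printed here so that the elements can be read beside the expression values. The ER stress element (ERSE) is CCAAT, then any 9 bases, then CCACG; the CCAAT part binds NF-Y and the CCACG part ATF6. The 250 bases before the start of each gene were searched on both strands in the RefSeq promoter table of build GRCm38.p6, which has an entry for 29 of the 33 members, without Hyou1, Manf, Derl1 and Atf6. ERSE occurred in 9 of those 29 members and in 0.113% of all 32851 promoters searched. Of these 9 genes 5 fell over both retina states, and their stretches follow 5′ to 3′ on the gene's own strand, with the matched bases in capitals. Hspa5 (chr2:34771918-34772058, plus strand) also holds TGACGTG, a core that ATF6 and XBP1 bind and that is present in 1.65% of promoters. Hsp90b1 (chr10:86705518-86705671, minus strand) holds 2 copies of ERSE, the second on the opposite strand, which reads CGTGG, 9 bases, ATTGG. Calr (chr8:84847060-84847108, minus strand) and Creld2 (chr15:88819505-88819553, plus strand) hold it on the opposite strand, and Pdia6 (chr12:17266476-17266524, plus strand) on its own.
Hspa5: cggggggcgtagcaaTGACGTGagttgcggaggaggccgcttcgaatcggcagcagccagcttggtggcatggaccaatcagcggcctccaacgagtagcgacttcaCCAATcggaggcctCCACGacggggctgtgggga
Hsp90b1: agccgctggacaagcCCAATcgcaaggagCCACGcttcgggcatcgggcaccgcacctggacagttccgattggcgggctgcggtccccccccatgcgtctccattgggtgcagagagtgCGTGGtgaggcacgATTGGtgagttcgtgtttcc
Calr: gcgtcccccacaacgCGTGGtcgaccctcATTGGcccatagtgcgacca
Creld2: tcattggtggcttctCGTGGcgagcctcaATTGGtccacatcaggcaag
Pdia6: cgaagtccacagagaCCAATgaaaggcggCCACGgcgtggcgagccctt

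The other 4 members with ERSE did not pass the test in any comparison, and are shown because the same element stands in their promoters. They are the lectin chaperone gene Canx (chr11:50325785-50325833, minus strand), the co-chaperone gene Dnajc3 (chr14:118937812-118937860, plus strand), and the degradation genes Syvn1 (chr19:6046517-6046565, plus strand) and Derl3 (chr10:75893227-75893275, plus strand, element on the opposite strand).
Canx: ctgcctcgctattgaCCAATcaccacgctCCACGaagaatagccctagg
Dnajc3: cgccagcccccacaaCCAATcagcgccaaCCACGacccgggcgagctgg
Syvn1: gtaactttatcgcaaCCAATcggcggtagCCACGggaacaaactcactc
Derl3: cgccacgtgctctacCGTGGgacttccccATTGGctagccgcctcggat
The 9 members with ERSE had a median log2 change of -0.23 over both retina states, with 8 below 0 and 5 called lower. The 20 members with an entry but no ERSE had a median of -0.14, with 19 below 0 and 4 called lower. Of the other 26 genes with ERSE in the table of promoters, 19 were tested, 12 were below 0, none was called by limma, and their median was -0.03. A match is a string of letters in this window and not a measured binding site, and Xbp1, one of the genes with the largest falls, had no ERSE match in it.

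Hspa5 encodes BiP, the main Hsp70 chaperone of the ER, which also holds the sensors inactive. It was at 70.8, 79.8 and 81.4 CPM in the CNV cp-asiNRL libraries, against 102, 96.2 and 98.5 CPM in the CNV PBS libraries. In WT retina it was at 76.3, 79.9 and 80.7 CPM with cp-asiNRL, against 96.1, 107 and 104 CPM with PBS. All cp-asiNRL libraries were low, CNV replicate 2 included, and the groups did not overlap. In WT retina its log2 change of -0.37 passed (SE 0.06, limma adjusted p = 0.0395), in CNV retina that of -0.35 just missed (SE 0.06, adjusted p = 0.0524; without replicate 2 of CNV cp-asiNRL it passed at -0.38, adjusted p = 0.00137), and over both states it fell by 0.36 (SE 0.04, adjusted p = 0.00174). The call needs care because 81% of the span of Hspa5 lies under Rabepk on the other strand, and the counts do not separate them. Rabepk had nearly the same number of reads, a mean of 5381 against 5315 for Hspa5, and its log2 change over both states was -0.35 (SE 0.04, adjusted p = 0.00129).

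Calr encodes calreticulin, a lectin chaperone that binds newly made glycoproteins and calcium. Calr was at 68.4, 82.4 and 78.7 CPM in CNV cp-asiNRL libraries, against 94.8, 101 and 101 CPM in CNV PBS libraries. WT cp-asiNRL libraries had 73.4, 81.3 and 85.3 CPM, against 105, 104 and 106 CPM in WT PBS libraries. Neither state showed overlap, and the fall over both was the largest of the 33 genes, 23.3% in mean CPM (log2 change -0.38, SE 0.05, limma adjusted p = 0.00272). In WT retina alone the log2 change was -0.39 (SE 0.07, adjusted p = 0.0458) and in CNV retina alone -0.37 (SE 0.07, adjusted p = 0.0867), or -0.43 without CNV cp-asiNRL replicate 2 (adjusted p = 0.001). No other gene of the table overlaps Calr. Its membrane-bound relative calnexin is encoded by Canx, which averaged 168 ± 7.41 CPM in CNV cp-asiNRL and 188 ± 5.73 CPM in CNV PBS libraries, and 179 ± 4.83 CPM in WT cp-asiNRL and 192 ± 6.6 CPM in WT PBS libraries (SD, n = 3 each). The log2 change of Canx over both states was -0.13 (SE 0.04, limma adjusted p = 0.0644), so it did not pass the threshold, and its interval of -0.21 to -0.05 lay above that of Calr, -0.49 to -0.28.

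**Figure D2:**
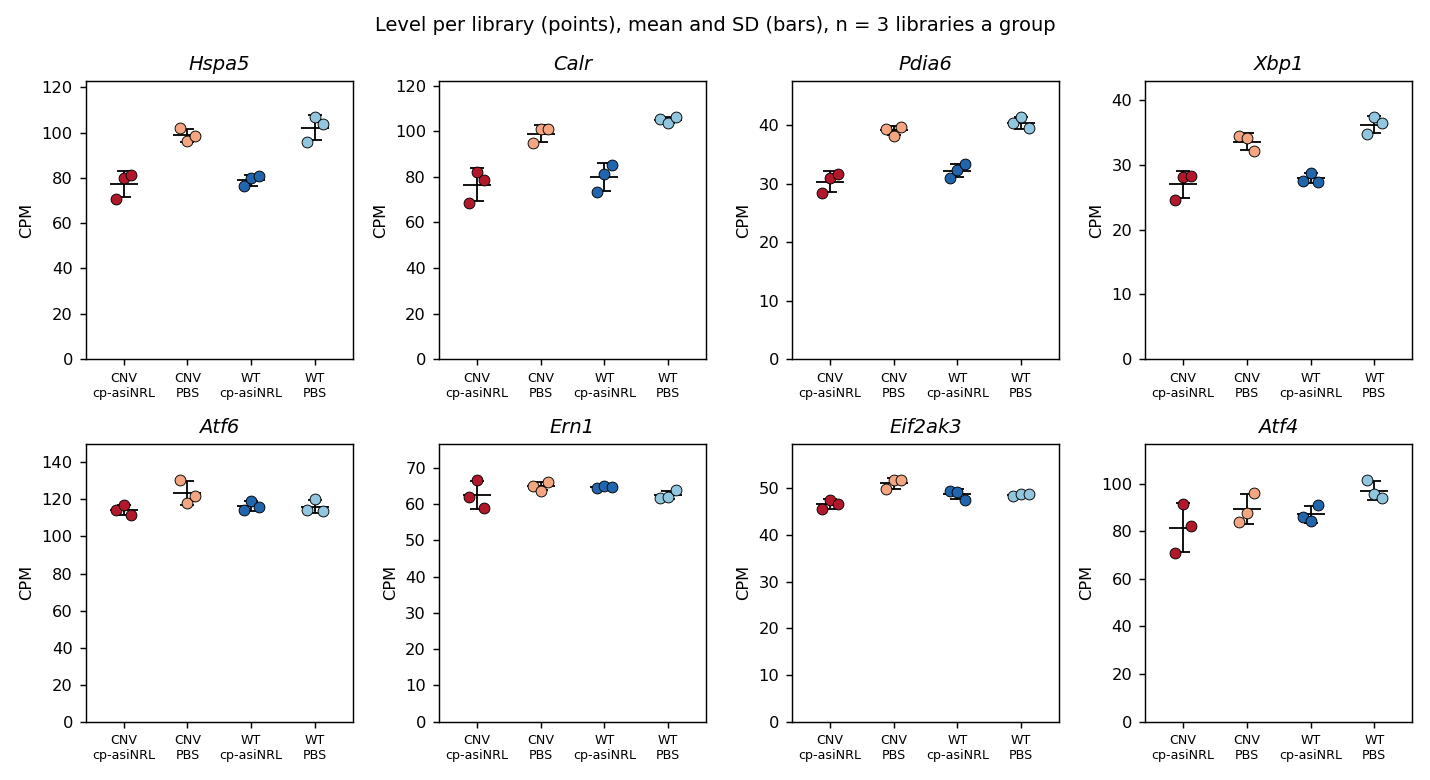
CPM (axes from 0) of 8 of the genes in each library (points), with the mean and SD of each group of 3 (bars), in the order CNV cp-asiNRL, CNV PBS, WT cp-asiNRL and WT PBS. Hspa5, Calr, Pdia6 and Xbp1 (upper row) are lower in every cp-asiNRL library than in every PBS library; the sensors Atf6, Ern1 and Eif2ak3 and the factor gene Atf4 (lower row) overlap between cp-asiNRL and PBS across the 2 states.

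Hsp90b1 encodes GRP94, the Hsp90 chaperone of the ER. Its libraries held 109.9, 129 and 109 CPM in CNV cp-asiNRL, against 152, 138 and 145 CPM in CNV PBS, and 119, 130.4 and 136 CPM in WT cp-asiNRL, against 148, 157 and 150.5 CPM in WT PBS. The cp-asiNRL values lay below the PBS values in both states. Hsp90b1 fell over both states by 0.28 on the log2 scale (SE 0.05, limma adjusted p = 0.0159), and passed in neither state alone, although in CNV retina without CNV cp-asiNRL replicate 2 it did (-0.40, adjusted p = 0.000859). Hyou1, an Hsp110-type partner that exchanges nucleotide on BiP, was at 32.4, 33.5 and 32.95 CPM in CNV cp-asiNRL against 37.1, 35.8 and 36.0 CPM in CNV PBS libraries, and at 29.2, 32.0 and 33.8 CPM in WT cp-asiNRL against 37.6, 41.4 and 35.7 CPM in WT PBS libraries. The groups of Hyou1 were apart by a small margin, with a log2 change of -0.20 (SE 0.04, adjusted p = 0.0369).

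Dnajb11 encodes an Hsp40 co-chaperone that brings clients to BiP. It had 25.3, 29.5 and 25.3 CPM in CNV cp-asiNRL against 31.2, 32.4 and 30.7 CPM in CNV PBS libraries, and 27.0, 29.9 and 30.2 CPM in WT cp-asiNRL against 33.9, 34.9 and 33.2 CPM in WT PBS libraries. Its log2 change over both states was -0.23 (SE 0.05, limma adjusted p = 0.028), and the cp-asiNRL libraries lay just under the PBS libraries. The other J-domain genes of the list, Dnajb9 and Dnajc3, had log2 changes of -0.01 (SE 0.06) and -0.07 (SE 0.04) and did not pass. Dnajb9 is a classical IRE1 and XBP1 target that promotes degradation, and Dnajc3 encodes p58IPK, a BiP partner inside the ER.

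Manf and Creld2 encode small secreted proteins of the ER, MANF being a neurotrophic factor that is retained with BiP and released on stress. Manf had 7.70, 9.09 and 8.40 CPM in CNV cp-asiNRL against 10.4, 10.01 and 10.2 CPM in CNV PBS libraries, and 8.43, 9.02 and 8.46 CPM in WT cp-asiNRL against 11.4, 10.4 and 11.01 CPM in WT PBS libraries. Creld2 had 8.13, 8.55 and 7.61 CPM in CNV cp-asiNRL against 8.82, 9.65 and 8.98 CPM in CNV PBS libraries, and 7.78, 8.23 and 7.69 CPM in WT cp-asiNRL against 10.3, 10.5 and 9.15 CPM in WT PBS libraries. Both genes were lower in each cp-asiNRL library than in each PBS library, with log2 changes of -0.28 for Manf (SE 0.05, limma adjusted p = 0.0177) and -0.23 for Creld2 (SE 0.05, adjusted p = 0.0387). Sdf2l1, which keeps misfolded clients soluble with Dnajb11, was the lowest of the chaperone genes at 1.12 to 2.56 CPM, and its log2 change of -0.21 (SE 0.09) did not pass (adjusted p = 0.186).

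The disulfide isomerases form and shuffle the disulfide bonds of folding proteins. Pdia6, which also acts on the sensors IRE1 and PERK, was the member with the smallest p over both states. CNV cp-asiNRL libraries had 28.4, 31.0 and 31.7 CPM of Pdia6, against 39.4, 38.2 and 39.7 CPM in CNV PBS libraries, and WT cp-asiNRL libraries had 31.0, 32.4 and 33.4 CPM, against 40.3, 41.3 and 39.4 CPM in WT PBS libraries. The gap between the treated and the PBS libraries was wider than the spread within any of the 4 groups. Pdia6 fell in WT retina (log2 change -0.32, SE 0.05, limma adjusted p = 0.0395), in CNV retina (-0.36, SE 0.05, adjusted p = 0.0337) and over both (-0.34, SE 0.04, adjusted p = 0.00129). Its call in WT retina and that in CNV retina each held in 8 of 22 alternative fits.

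Pdia4, an isomerase with an additional thioredoxin domain, was at 33.8, 38.1 and 33.2 CPM in CNV cp-asiNRL against 40.7, 40.4 and 41.5 CPM in CNV PBS libraries, and at 35.2, 36.4 and 40.2 CPM in WT cp-asiNRL against 45.9, 44.6 and 43.5 CPM in WT PBS libraries. P4hb, the classical protein disulfide isomerase, was at 65.3, 75.5 and 70.9 CPM in CNV cp-asiNRL against 80.5, 79.6 and 80.8 CPM in CNV PBS libraries, and at 71.2, 72.4 and 70.6 CPM in WT cp-asiNRL against 89.1, 81.3 and 85.1 CPM in WT PBS libraries. Over both states Pdia4 fell by 0.24 on the log2 scale (SE 0.04, limma adjusted p = 0.019) and P4hb by 0.22 (SE 0.04, adjusted p = 0.0172), without overlap of the libraries. Pdia3, which works with calnexin and calreticulin on glycoproteins, was at -0.13 on the log2 scale (SE 0.04, adjusted p = 0.1), with overlapping WT libraries.

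**Figure D3:**
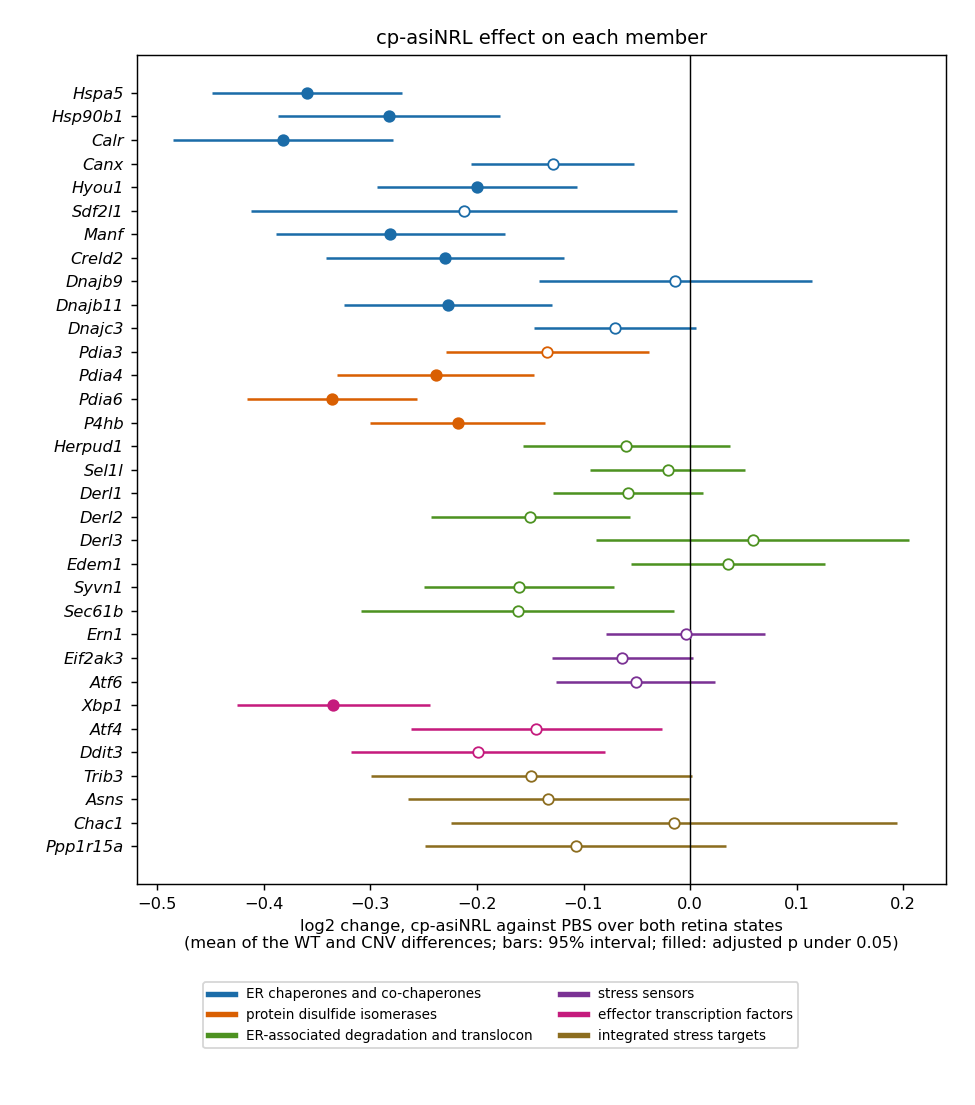
log2 change of each of the 33 genes, cp-asiNRL against PBS over both retina states (points), with its 95% interval (bars), coloured by role; filled points passed limma's adjusted p of 0.05. The chaperone and isomerase rows hold 10 of the 11 filled points, and the intervals of the 3 sensors include 0 in this fit, though not for Atf6 and Eif2ak3 once the trend with gene span is removed.

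The 8 degradation and translocon genes did not pass limma's test in any comparison, and 3 of them had an unadjusted p under 0.05 over both states, all lower, beside 13.7% of all genes lower. Their median log2 change over both states was -0.06. Syvn1 encodes HRD1, the ubiquitin ligase of ER-associated degradation. It was at 16.6, 17.2 and 15.8 CPM in CNV cp-asiNRL against 18.6, 18.1 and 19.1 CPM in CNV PBS libraries, and at 17.0, 19.0 and 18.1 CPM in WT cp-asiNRL against 20.97, 20.2 and 19.7 CPM in WT PBS libraries. The groups were apart within each state but not across them, and the log2 change was -0.16 (SE 0.04, limma adjusted p = 0.0544). Derl2, a derlin of the retrotranslocation channel, was at 14.8, 17.3 and 15.5 CPM in CNV cp-asiNRL against 19.7, 19.2 and 18.6 CPM in CNV PBS libraries, and at 18.3, 18.9 and 18.2 CPM in WT cp-asiNRL against 18.6, 18.6 and 19.8 CPM in WT PBS libraries. Derl2 was low in the CNV cp-asiNRL libraries and overlapped between the WT groups.

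Sel1l, the HRD1 adaptor, and Derl1 had log2 changes of -0.02 (interval -0.09 to 0.05) and -0.06 (interval -0.13 to 0.01) over both states. Herpud1, which assembles the HRD1 complex, was at -0.06 (interval -0.16 to 0.04), and its promoter holds ERSE-II, which is ATTGG, 1 base, CCACG. ERSE-II was present in 0.0304% of all promoters and in no other member. Edem1, which trims mannose from doomed glycoproteins, was at 0.04 (interval -0.06 to 0.13), and 12% of its span lies under Gm35417, an opposite-strand gene with more reads than Edem1. Sec61b, a subunit of the translocon, was at -0.16 (interval -0.31 to -0.02) with 2.63 to 3.72 CPM, and Derl3 at 0.06 (interval -0.09 to 0.21) with 1.37 to 2.22 CPM.

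The 3 sensor genes did not pass in any comparison. Atf6 had 114, 117 and 112 CPM in CNV cp-asiNRL libraries, against 130.5, 118 and 122 CPM in CNV PBS libraries, and 114, 119 and 116 CPM in WT cp-asiNRL libraries, against 114, 120 and 114 CPM in WT PBS libraries. Ern1 had 62.0, 66.6 and 58.8 CPM in CNV cp-asiNRL, against 65.1, 63.7 and 66.0 CPM in CNV PBS, and 64.4, 64.8 and 64.7 CPM in WT cp-asiNRL, against 61.7, 62.1 and 63.9 CPM in WT PBS. Eif2ak3 had 45.5, 47.5 and 46.6 CPM in CNV cp-asiNRL, against 49.7, 51.7 and 51.7 CPM in CNV PBS, and 49.4, 49.3 and 47.4 CPM in WT cp-asiNRL, against 48.3, 48.7 and 48.8 CPM in WT PBS. In CNV retina Atf6 and Eif2ak3 were lower in each cp-asiNRL library than in each PBS library, and in WT retina both overlapped. Ern1 overlapped in CNV retina, and in WT retina each cp-asiNRL library was higher than each PBS library, with a log2 change of 0.05 (SE 0.05) that did not pass. Over both states the log2 changes were -0.05 for Atf6 (interval -0.13 to 0.02), -0.00414 for Ern1 (interval -0.08 to 0.07) and -0.06 for Eif2ak3 (interval -0.13 to 0.00264). Those intervals hold no fall as large as that of Hspa5, Calr, Pdia6 or Xbp1.

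Among the transcription factors Xbp1 fell, and the factors of the PERK branch did not pass. Xbp1 was at 24.6, 28.2 and 28.2 CPM in CNV cp-asiNRL libraries, against 34.5, 34.2 and 32.1 CPM in CNV PBS libraries. In WT retina it was at 27.6, 28.8 and 27.4 CPM with cp-asiNRL, against 34.8, 37.4 and 36.5 CPM with PBS. All 6 cp-asiNRL libraries lay below all 6 PBS libraries, and no other gene of the table overlaps Xbp1. Its log2 change was -0.36 (SE 0.06, limma adjusted p = 0.0395) in WT retina, -0.31 (SE 0.06, adjusted p = 0.123) in CNV retina, where it passed without CNV cp-asiNRL replicate 2 (-0.34, adjusted p = 0.00287), and -0.33 (SE 0.04, adjusted p = 0.00272) over both.

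Ddit3 encodes CHOP, a factor of prolonged stress. It was at 19.7, 21.9 and 20.5 CPM in CNV cp-asiNRL against 20.3, 24.2 and 24.9 CPM in CNV PBS libraries, and at 20.7, 18.0 and 21.4 CPM in WT cp-asiNRL against 24.5, 24.2 and 23.4 CPM in WT PBS libraries. The WT groups were apart and the CNV groups overlapped, with a log2 change of -0.20 over both (SE 0.06, limma adjusted p = 0.0662). Atf4 averaged 81.5 ± 10.3 CPM in CNV cp-asiNRL and 89.3 ± 6.23 CPM in CNV PBS libraries, and 87.0 ± 3.61 CPM in WT cp-asiNRL and 96.97 ± 3.97 CPM in WT PBS libraries (SD, n = 3 each). The log2 change of Atf4 was -0.14 (SE 0.06, limma adjusted p = 0.135). ATF4 is controlled chiefly at translation, which transcript levels do not show.

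None of the 4 integrated stress targets passed limma's test in any comparison, and 1 was lower at an unadjusted p under 0.05 over both states, beside 13.7% of all genes. Asns encodes asparagine synthetase, and Trib3 a pseudokinase that feeds back on ATF4. Asns was at 17.6, 19.5 and 21.6 CPM in CNV cp-asiNRL against 19.8, 22.8 and 18.9 CPM in CNV PBS libraries, and at 18.5, 15.5 and 16.9 CPM in WT cp-asiNRL against 21.1, 19.2 and 18.7 CPM in WT PBS libraries. Trib3 was at 1.91, 2.62 and 2.29 CPM in CNV cp-asiNRL against 2.55, 2.62 and 2.79 CPM in CNV PBS libraries, and at 2.62, 2.35 and 2.73 CPM in WT cp-asiNRL against 3.34, 2.76 and 2.66 CPM in WT PBS libraries. Asns was apart between the WT groups and mixed between the CNV groups, and Trib3 overlapped in both. The log2 changes over both states were -0.13 for Asns (SE 0.06, limma adjusted p = 0.205) and -0.15 for Trib3 (SE 0.07, adjusted p = 0.212). Chac1, which degrades glutathione, ranged from 0.721 to 1.64 CPM, and Ppp1r15a, which recruits the phosphatase that reverses eIF2 phosphorylation, from 5.74 to 7.94 CPM. Ppp1r15a shares 21.8% of its span with Tulp2 on the other strand.

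The ATF4 element was searched as TGATG, any base, AA, with 1 further base. It was present in 3.44% of all promoters and in those of 3 members, Asns, Chac1 and Herpud1. The stretches of Asns (chr6:7693210-7693247, minus strand) and Chac1 (chr2:119351033-119351071, plus strand, element on the opposite strand) are shown as those of the 2 integrated stress targets that carry it.
Asns: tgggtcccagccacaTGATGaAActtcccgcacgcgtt
Chac1: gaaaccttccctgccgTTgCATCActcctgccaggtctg
The log2 change of Asns was -0.06 (SE 0.09) in CNV and -0.20 (SE 0.09) in WT retina, and that of Chac1 was 0.16 (SE 0.14) in CNV and -0.19 (SE 0.14) in WT retina, and no value passed.

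Grouped by role, the falls over both states came to 7 of 11 chaperones and co-chaperones (median log2 change -0.23), 3 of 4 isomerases (median -0.23), 1 of 3 effector transcription factors (median -0.20), 0 of 8 degradation and translocon genes, 0 of 3 sensors (median -0.05) and 0 of 4 integrated stress targets (median -0.12). Beside these counts, 1.65% of all genes were called lower. The summed level of the 11 chaperone genes was 539, 605 and 576 CPM in CNV cp-asiNRL libraries, against 695, 669 and 680.1 CPM in CNV PBS libraries. It was 576, 609.9 and 627 CPM in WT cp-asiNRL libraries, against 693, 714 and 716 CPM in WT PBS libraries. The chaperone sums of the 6 cp-asiNRL libraries all lay below those of the 6 PBS libraries, while those of the 3 sensors overlapped, at 217 to 231 CPM in CNV cp-asiNRL, 233 to 245 CPM in CNV PBS, 228 to 234 CPM in WT cp-asiNRL and 224 to 231 CPM in WT PBS libraries.

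Grouped by branch, with each gene put under 1 sensor although many answer to more, the ATF6 branch had 9 of 14 genes called lower over both states (median log2 change -0.22). The IRE1 and XBP1 branch had 2 of 12 (Dnajb11 and Xbp1, median -0.06) and the PERK and ATF4 branch 0 of 7, with 3 at an unadjusted p under 0.05 (median -0.13). Of all genes, 1.65% were called lower and 13.7% were lower at an unadjusted p under 0.05. Gene spans were not matched between the branches, and all genes of at least 5 CPM spanning under 5 kb had a median of -0.13. Values with the span trend removed were summed up by role and not by branch. No test of the difference between branches was made.

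In WT retina alone, limma called 4 members lower (Hspa5, Calr, Pdia6 and Xbp1) and none higher, beside 0.0937% of all genes called lower and 0.0468% called higher. Of the 33 members 28 were below 0, beside 49.5% of all genes, with a median of -0.16, and 16 were lower at an unadjusted p under 0.05, beside 9.79% of all genes. Among genes of at least 5 CPM, 86.2% of those spanning under 5 kb and 20.8% of those above 100 kb were below 0 in WT retina. In 20 members the 3 cp-asiNRL libraries lay below the 3 PBS libraries, which 15.8% of all genes did. In CNV retina alone, limma called Pdia6 lower and no member higher, beside 0.0312% of all genes called lower and 0.0156% higher. There 30 members were below 0, beside 49.6% of all genes, with a median of -0.15, 18 were lower at an unadjusted p under 0.05, beside 8.41% of all genes, and 18 had groups apart and lower, beside 6.73%. By span, 79.6% of genes of at least 5 CPM under 5 kb and 36.8% of those above 100 kb were below 0 in CNV retina. Without CNV cp-asiNRL replicate 2, calls rose over all genes. The members called lower were then 12 in CNV retina beside 8.66% of all genes, 11 in WT retina beside 2.34%, and 16 over both states beside 12.4%, with no member higher. The 12 in CNV retina were Hspa5, Hsp90b1, Calr, Canx, Manf, Dnajb11, Pdia4, Pdia6, P4hb, Derl2, Xbp1 and Atf4. The 5 added over both states were Canx, Derl2, Syvn1, Atf4 and Ddit3.

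The effects in the 2 states were compared by their difference, which limma called for no member, with 1 at an unadjusted p under 0.05, and for none of the 25619 genes (6.21% of them at an unadjusted p under 0.05). Effects in CNV minus those in WT retina were 0.01 for Hspa5 (interval -0.16 to 0.19), 0.02 for Calr (interval -0.19 to 0.23), -0.04 for Pdia6 (interval -0.20 to 0.12) and 0.06 for Xbp1 (interval -0.12 to 0.24). A missed threshold with intervals of this width does not show that the effects were equal. Derl2 had the smallest p, with a difference of -0.22 (SE 0.09, adjusted p = 0.788). The integrated stress targets had a median difference of 0.20, with Chac1 at 0.34 (SE 0.20) and Ppp1r15a at 0.27 (SE 0.13), and neither passed.

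**Figure D4:**
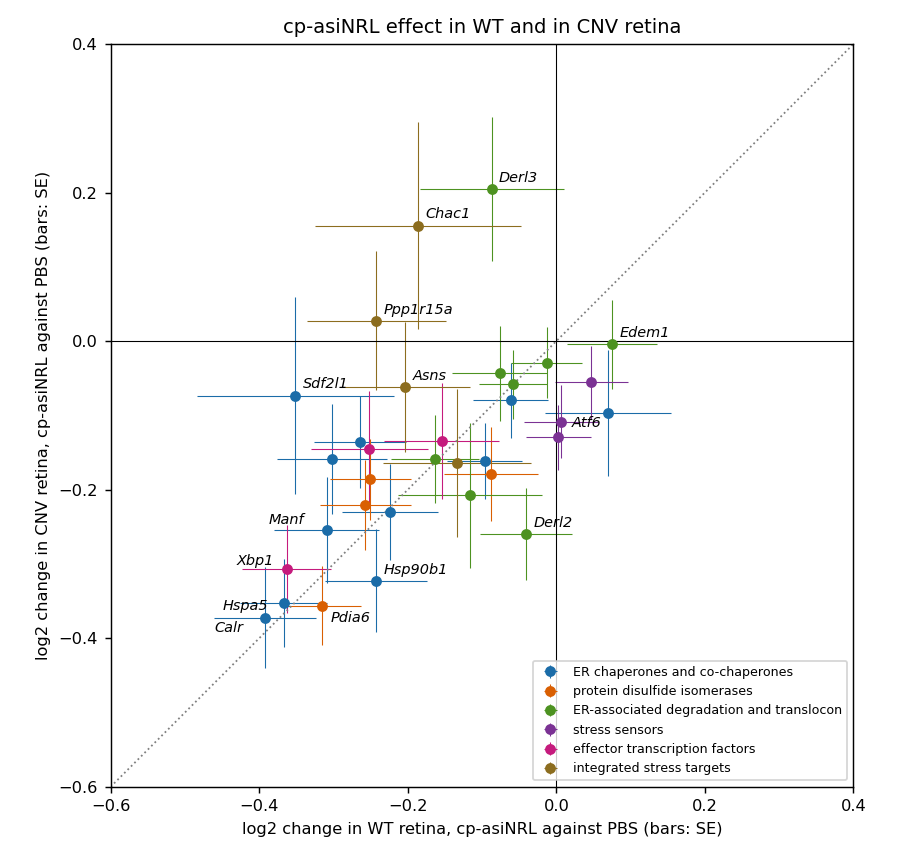
log2 change of each gene with cp-asiNRL against PBS, in WT retina (horizontal axis) and CNV retina (vertical axis), with SE bars, coloured by role; the dotted line marks equal changes. Hspa5, Calr, Pdia6 and Xbp1 sit near the line at the lower left, whereas Chac1, Derl3 and Ppp1r15a lie above it with wide bars.

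Between CNV and WT retina limma called none of the 33 genes under either injection. Under PBS, CNV against WT retina had a median of -0.06 over the members, with 23 of 33 below 0, beside 50.3% of all genes. Derl3 was lower at an unadjusted p under 0.05, as were 3.69% of all genes, and limma called 0 of the 25619. Xbp1 was at -0.11 (SE 0.06), Hspa5 at -0.05 (SE 0.06) and Calr at -0.09 (SE 0.07), whereas Atf6 was at 0.09, Eif2ak3 at 0.07 and Ern1 at 0.05 (SE 0.05, 0.04 and 0.05). Eif2ak3 was higher in each CNV PBS library than in each WT PBS library, and 7 members were lower in each CNV PBS library, beside 7.54% of all genes apart and higher and 8.04% apart and lower. Under cp-asiNRL the median was -0.04, with 1 member lower and 1 higher at an unadjusted p under 0.05, beside 17.2% of all genes in either direction and 0 called. Over both injections it was -0.04, with 5 lower at an unadjusted p under 0.05 and none higher, beside 7.88% of all genes lower and 0.0039% called. With library quality weights, limma called 3 members lower under cp-asiNRL, beside 7.7% of all genes lower and 9.49% higher, and 5 lower over both injections, beside 5.9% lower and 7.83% higher.

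The wider pathway was read from 102 genes outside the 33. In 6 lists, with all 102 tested, 5 fell over both states and none rose, beside 1.65% of all genes called lower and 0.71% called higher. Of these, 4 belong to the 20 genes of ER translocation and glycosylation. Ostc, a subunit of the oligosaccharyltransferase, averaged 14.2 CPM with cp-asiNRL and 17.5 CPM with PBS (log2 change -0.28, SE 0.04, limma adjusted p = 0.0091). Rpn1 of the same complex (-0.24), Ssr4 of the translocon-associated complex (-0.20) and Spcs2 of the signal peptidase (-0.16) had adjusted p of 0.0378 each. The other called gene was the serine tRNA synthetase gene Sars (log2 change -0.18, SE 0.04, adjusted p = 0.0386), 1 of 22 ATF4 targets. That list had a median of 0.000365, with 2 lower and 6 higher at an unadjusted p under 0.05. None of 18 other folding and oxidation genes was called (7 lower at an unadjusted p under 0.05), none of 15 other degradation genes (4 lower), none of 13 eIF2 kinase and eIF2 genes (2 lower) and none of 14 sensor processing genes (4 lower, 2 higher). Of all genes 13.7% were lower at that threshold, and the share higher is not given here. Eif2ak2 encodes PKR, the eIF2 kinase that double-stranded RNA activates, and did not pass, at 0.31 in CNV retina (SE 0.12, adjusted p = 0.254) and -0.07 in WT retina (SE 0.12, adjusted p = 0.824). Eif2b1 of the same list was at -0.09 over both states (SE 0.04, limma adjusted p = 0.248). Of the sensor processing list, Creb3 was at -0.17 over both states (SE 0.05, adjusted p = 0.0595). Map3k5, a kinase downstream of IRE1, had 0.23 over both states (SE 0.07, adjusted p = 0.0691).

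Levels of different genes can be set side by side only per length, and here the length is the genomic span with its introns, so genes with long introns read low. On that scale Atf4 was densest, at 37.6 CPM per kb of span over the 12 libraries, then Hspa5 at 20.1 and Calr at 18.6 CPM per kb. Hsp90b1 had 9.27, P4hb 5.93, Xbp1 5.83, Canx 5.74 and Herpud1 3.28 CPM per kb of span. The sensor genes were sparse, with 0.802 CPM per kb for Eif2ak3, 0.715 for Atf6 and 0.683 for Ern1, and the lowest value was 0.373 CPM per kb for Chac1.

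The change with cp-asiNRL went with gene span across the whole table, and several members are short. Among all genes of at least 5 CPM, the median log2 change over both states was -0.13 below 5 kb, -0.10 from 5 to 10 kb, -0.08 from 10 to 20 kb, -0.02 from 20 to 50 kb, 0.02 from 50 to 100 kb and 0.05 above. The members' medians in the same classes were -0.14 (9 genes, no floor on CPM), -0.16 (7), -0.22 (7), -0.07 (7), -0.03 (2) and -0.05 (1). Of all genes in these classes 10.3%, 7.11%, 3.51%, 1.48%, 0.481% and 0.26% were called lower, against 3, 2, 5, 1, 0 and 0 of the members. The shares of all genes below 0 were 87.3%, 82.7%, 77.5%, 59.4%, 36.8% and 28.7%. Pdia6 spans 18197 bp, Hspa5 4440 bp, Calr 4844 bp and Xbp1 5353 bp. With the trend with span removed, 9 members were called lower over both states, 5 chaperones, 3 isomerases and Xbp1, beside 0.839% of all genes. Pdia6 was then at -0.33 (adjusted p = 0.00195), Calr at -0.35 (adjusted p = 0.00481), Hspa5 at -0.33 (adjusted p = 0.00835) and Xbp1 at -0.31 (adjusted p = 0.0103). The long sensor genes moved further below 0, with a median of -0.11, against -0.05 with the trend kept. Atf6 was then at -0.11 (interval -0.20 to -0.03), Eif2ak3 at -0.11 (interval -0.18 to -0.03) and Ern1 at -0.06 (interval -0.15 to 0.03), so those of Atf6 and Eif2ak3 no longer included 0, and none of the 3 was called. In WT retina no member was then called, nor was any of all genes called lower, and 31 of 33 members were below 0. In CNV retina Pdia6 was called, beside 0.0312% of all genes lower.

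**Figure D5:**
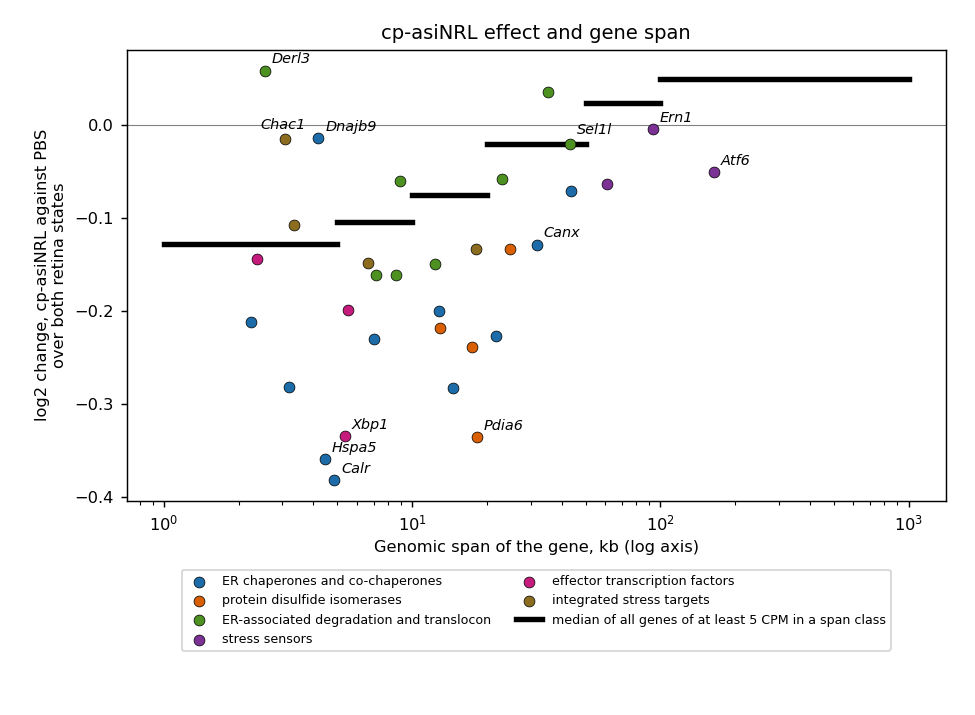
log2 change of each gene over both retina states (vertical axis) against its genomic span in kb (horizontal log axis), coloured by role, with the median of all genes of at least 5 CPM in 6 span classes (black lines). The lines climb from -0.13 for the shortest class to 0.05 for the longest, and Hspa5, Calr, Xbp1 and Pdia6 lie well below the lines of their classes.

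Markers of cell types moved with cp-asiNRL as well, and their part in the results was not tested. All 7 rod markers were below 0 over both states, 5 at an unadjusted p under 0.05 (beside 13.7% of all genes lower), and limma called none. The 8 markers of the pigment epithelium, tissue that can come away with the retina, summed to 21.6 to 32.9 CPM in CNV cp-asiNRL, 24.4 to 37.6 CPM in CNV PBS, 18.4 to 21.3 CPM in WT cp-asiNRL and 28.1 to 35.6 CPM in WT PBS libraries, and Ttr and Lrat were called lower over both states (2 of 8, beside 1.65% of all genes). The 7 genes listed for reactive Müller glia (Gfap, Serpina3n, Lcn2, Edn2, Fgf2, C3 and Cd44) summed to 93.2 to 272 CPM in CNV cp-asiNRL, 79.5 to 208 CPM in CNV PBS, 76.8 to 125 CPM in WT cp-asiNRL and 48.2 to 52.6 CPM in WT PBS libraries, with 6 of 7 above 0 and none called. Fgf2 was a large part of that sum, at 55.6 to 136.5 CPM in CNV cp-asiNRL and 27.3 to 29.2 CPM in WT PBS libraries. The 8 interferon response genes summed to 87.5 to 276 CPM in CNV cp-asiNRL, 78.3 to 88.1 CPM in CNV PBS, 61.4 to 90.1 CPM in WT cp-asiNRL and 57.0 to 61.0 CPM in WT PBS libraries, with 7 of 8 higher at an unadjusted p under 0.05 over both states and none called. The share of all genes higher at that threshold is not given here. Markers of microglia (8), other Müller glia genes (5), blood (5) and endothelium (5) held no called gene, and no marker was at 0 in any library. In CNV cp-asiNRL replicate 2, whose Nrl was within the PBS range, Hspa5, Calr, Pdia6 and Xbp1 were at 79.8, 82.4, 31.0 and 28.2 CPM, all below the 6 PBS libraries. These genes were called in comparisons that include replicate 2, so their low values in it followed in part from the choice of genes. The summed level of the chaperone genes in replicate 2 was 605 CPM. That was below all PBS libraries but above the 539 and 576 CPM of the other replicates of its group. Not every member was low in that library, and its Atf4, at 91.4 CPM, lay within the CNV PBS range of 84.0 to 96.2 CPM. How the falls relate to Nrl was not tested.

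Which genes passed depended on single libraries, and the calls over all genes moved with them. Over both states the 11 members called lower, beside 423 of all genes, became 5 beside 40 without WT PBS replicate 1, 7 beside 62 without WT PBS replicate 3, 4 beside 34 without WT cp-asiNRL replicate 1, 4 beside 35 without WT cp-asiNRL replicate 2, 4 beside 27 without CNV PBS replicate 3 and 5 beside 37 without CNV cp-asiNRL replicate 1. Hspa5, Calr, Pdia6 and Xbp1 were called over both states in each of the 21 alternative fits. Their log2 changes there ran from -0.38 to -0.33 for Hspa5, from -0.42 to -0.34 for Calr, from -0.36 to -0.30 for Pdia6 and from -0.36 to -0.30 for Xbp1. Of the other 7 genes, Hsp90b1 was called in 17 fits, P4hb in 16, Pdia4 in 15, Manf in 14, Dnajb11 in 11, Hyou1 in 8 and Creld2 in 7, and no change turned its sign. Calls within 1 state were less stable. In WT retina Hspa5 and Xbp1 were called in 10 of 22 alternative fits each, Pdia6 in 8 and Calr in 7. In CNV retina Pdia6 was called in 8 of 22.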

How the data were processed

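Retinal RNA libraries came from a kit for polyadenylated RNA that marks strand, per the labels' protocols. The submitters' processing notes name HISAT2 2.1.0, featureCounts 1.6.0 and the build mm10. The deposited chromosome accessions belong to GRCm39, so member coordinates were not mixed with the GRCm38.p6 promoters. Per the file headers the deposited signal is FPKM. However, each of its 482424 values times the deposited gene length was whole within 0.000000000058, so the deposited signal is reads per base of gene, not scaled to depth. That length equalled the genomic span for all 40200 genes with a single locus.

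Reads were recovered and scaled to CPM by trimmed means (30% and 5%). Genes with the CPM of 10 reads at the median library in 3 or more libraries, and 15 or more reads in all, were kept (25619). The test was limma 3.58.1 with a trend (R 4.3.3) on log2(CPM + 1), over 12 libraries and 4 group means. Changes are on that scale, which understates those of low genes. An edgeR fit was planned only for counts as deposited and was not run. Scaling, filter, pseudocount, voom, quality weights, replicate block, span trend and each library were varied, and the procedure was tested on simulated data.

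Members and lists were chosen with earlier results of these data known. Values in every library are given for members called in any comparison, the sensors and the 2 smallest p in other roles; at most 4 genes of a wider list are named. Sars stands for Sars1 by its older symbol, 1 of 4 such matches. Of the 33 members, 13 overlap another gene. Protein sequences were not analysed here. One rod marker of the planned list is not reported here and was left out of that list.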

Additional observations from a re-analysis of the deposited data

How the results depend on the processing

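Counts of members called lower changed with the processing, and those over all genes changed with them. The 11 members called over both states kept their direction in every alternative of the cp-asiNRL comparisons they were called in. Among all 33 the sign turned in at least 1 alternative for 5 in WT retina, 6 in CNV retina and 4 over both states, all within 0.0733 of 0; removing the span trend turned Ern1, Eif2ak3 and Atf6 in WT retina to -0.00386, -0.04 and -0.05, and Dnajb9 and Chac1 over both states to 0.02 and 0.02. In WT retina the 4 members called lower, beside 24 of all genes, became 2 beside 10 with library totals, 2 beside 8 with median-of-ratios scaling, 0 beside 0 with no filter, with limma voom and with the span trend removed, 12 beside 1195 with quality weights and 14 beside 1624 with the WT libraries alone. In CNV retina the 1 call, beside 8, became 0 beside 3 with library totals, 0 beside 0 with no filter and with the CNV libraries alone, 2 beside 9 with a pseudocount of 0.5 and 13 beside 1605 with quality weights. Over both states the 11 calls became 18 with quality weights. Quality weights gave 3 calls for CNV against WT under cp-asiNRL and 5 over both injections, against 0 in each. The cause of these shifts was not tested. With one library left out, the counts ran from 0 to 11 in WT retina (beside 0 to 597 of all genes lower), 0 to 12 in CNV retina (beside 0 to 2213), 4 to 16 over both states (beside 27 to 3175), 0 to 3 for CNV against WT under cp-asiNRL and 0 to 6 over both injections. Counts for CNV against WT under PBS and for the difference between the effects were 0 in all alternatives. Quality weights also raised the calls over all genes, to 3475 lower and 2407 higher over both states, against 423 and 182.

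The replicate numbers were not shown to pair the libraries, since same-numbered libraries correlated at -0.521 to 0.307. With the number as a replicate block the members called were 0 in WT retina, 0 in CNV retina and 6 over both states, and 60 of all genes were called lower over both states, against 423. Depth limits mainly Sdf2l1, Derl3, Trib3, Sec61b and Chac1, all under 4 CPM.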
